A study of Mus musculus with 122 samples.

Results

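Nt5e, Cttnbp2, Gpr83 and Samd9l are 4 of the 52459 genes in the RNA-seq table of a series on chimeras of CTCF and its paralog CTCFL in mouse embryonic stem cells. They were selected by measured values, from among the strongest falls in expression when a chimera called LCL or a chimera called CLC was induced in cells that still held their own CTCF. Those falls are therefore described below with no test. CTCF binds DNA through its zinc fingers and stops the cohesin ring as the ring extrudes chromatin loops. CTCFL, known from the male germ line, has closely related zinc fingers and unrelated ends. LCL carries the zinc fingers of CTCF between the ends of CTCFL, and CLC carries the zinc fingers of CTCFL between the ends of CTCF.

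The cells were E14Tg2a mouse embryonic stem cells in which both copies of Ctcf carried an auxin-inducible degron with eGFP, and the plant protein Tir1 was expressed from Rosa26. Each line was an individual clone that also carried, at Tigre, a doxycycline-inducible transgene with a FLAG tag and mRuby2, so the untreated controls carry every one of these alleles. The transgene coded for CTCF, CTCFL, LCL or CLC. Cells were untreated (U), given 500 µM of the auxin IAA, which degrades endogenous CTCF (I), given 1 µg/ml doxycycline, which induces the transgene (D), or given both (ID). The RNA labels give 24 h of treatment, and other descriptions of the study give a longer time. Polyadenylated RNA was sequenced in 2 libraries per condition for LCL and for CLC, in 2 or 3 per condition for CTCF and in 2 or 3 for CTCFL. Nothing in the labels says that replicates came from separate cultures, so p-values measure the spread between libraries, which may be technical. FLAG ChIP-seq of D and ID cells located the transgenic proteins, including CLL and LLC, 2 further chimeras that have no RNA-seq. The labels give 24 h for the FLAG samples of CTCF, CTCFL, LCL and CLC and a longer time for those of CLL and LLC.

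Recovered reads per library were 20497827 to 49716771 in the LCL line, 26349345 to 39671659 in CLC, 16270957 to 28917040 in CTCF and 6847072 to 43154741 in CTCFL, where 2 libraries gave no read number. Normalized counts of Ctcfl, which can include transgene reads, were 384 and 416 in D of the LCL line against 36.5 and 27.2 in U, and 1791 and 1829 in D of the CLC line against 41.4 and 42.7 in U. Untreated libraries of LCL and CLC correlated with each other across genes at r from 0.97 to 0.98, and with those of the CTCF line at 0.92 to 0.93. Column names of the LCL and CLC libraries hold the string 2i and those of the CTCF and CTCFL lines do not, while the study's methods describe a single medium for all clones. Whatever the string stands for, it cannot be told apart from transgene and clone in any comparison between the chimera lines and the other lines. All 15 naive pluripotency genes listed (Pou5f1, Nanog and others) were detected in each condition of LCL and CLC, and none of them was called in D against U of either line.

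The 4 genes act in unrelated processes. Nt5e codes for CD73, the ectonucleotidase at the cell surface that turns extracellular AMP into adenosine. Cttnbp2 codes for a partner of cortactin that is known from dendritic spines of neurons and binds the striatin complex STRIPAK. Gpr83 codes for a G protein-coupled receptor, proposed as the receptor of the neuropeptide PEN, which is cut from proSAAS. Samd9l codes for a large cytoplasmic protein induced by interferon that restrains viruses and cell growth.

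Their positions are given for GRCm38 with the GENCODE annotation. Samd9l (ENSMUSG00000047735) lies at chr6:3372257-3399572 on the − strand and Cttnbp2 (ENSMUSG00000000416) at chr6:18366478-18514843 on the − strand. Gpr83 (ENSMUSG00000031932) lies at chr9:14860210-14870789 and Nt5e (ENSMUSG00000032420) at chr9:88327197-88372092, both on the + strand. The pairs on each chromosome are far apart, and no member lies within 500 kb of another.

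The FLAG sites around these genes fell into a class with a CTCF motif and a class without one. A FLAG site is a region with a MACS peak in both replicates. Sites of the first class that LCL occupied in D cells are printed first, as 121 bases around the peak summit, with capitals for the best match to a CTCF motif of 19 positions built here from the CTCF sites of ID cells. They are shown because each was bound by both CTCF and LCL, and in D cells none was bound by CLC.
Samd9l, site 48.0 kb upstream, chr6:3447519-3447639, + strand: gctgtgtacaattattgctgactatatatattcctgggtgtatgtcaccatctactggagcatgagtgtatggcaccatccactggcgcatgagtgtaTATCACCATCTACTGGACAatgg
Gpr83, site 13.6 kb upstream, chr9:14846582-14846702, + strand: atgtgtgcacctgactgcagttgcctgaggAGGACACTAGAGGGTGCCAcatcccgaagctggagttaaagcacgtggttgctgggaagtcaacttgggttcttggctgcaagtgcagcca
Cttnbp2, site in the intron 142 kb into the gene, chr6:18372997-18373117, + strand: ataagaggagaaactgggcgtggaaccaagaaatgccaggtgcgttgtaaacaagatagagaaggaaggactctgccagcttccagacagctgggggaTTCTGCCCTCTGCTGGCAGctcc
Nt5e, site 85.5 kb upstream, chr9:88241685-88241805, + strand: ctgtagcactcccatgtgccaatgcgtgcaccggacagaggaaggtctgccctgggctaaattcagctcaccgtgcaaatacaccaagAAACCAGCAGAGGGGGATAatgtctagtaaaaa

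A site of the second class, in Cttnbp2, is shown because it is the only site of CLC in D cells that lay inside any of the 4 genes. Its sequence is a long alternation of purine and pyrimidine, rich in TG and CA steps, and it holds no match to the CTCF motif. Capitals mark the longest unbroken alternation, which covered all 121 bases.
Cttnbp2, site in the intron 65.4 kb into the gene, chr6:18449367-18449487, + strand: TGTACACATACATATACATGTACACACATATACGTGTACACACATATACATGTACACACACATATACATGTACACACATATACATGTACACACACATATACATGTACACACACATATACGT

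Promoters from 250 bases before to 50 after the RefSeq start are printed for the 3 genes with a FLAG site at or very near the start, in the direction of transcription and with any CTCF motif match in capitals. The motif was matched in the Samd9l promoter, by a narrow margin in that of Cttnbp2, and in 19.6% of 5000 promoters of this length that were scanned on both strands. The Samd9l promoter held 1 CpG, against 23 in that of Nt5e and 24 in that of Gpr83, where the median of all promoters was 7. Cttnbp2, whose promoter held 30 CpG, had no FLAG site at its start.
Samd9l, promoter, chr6:3399522-3399821, − strand: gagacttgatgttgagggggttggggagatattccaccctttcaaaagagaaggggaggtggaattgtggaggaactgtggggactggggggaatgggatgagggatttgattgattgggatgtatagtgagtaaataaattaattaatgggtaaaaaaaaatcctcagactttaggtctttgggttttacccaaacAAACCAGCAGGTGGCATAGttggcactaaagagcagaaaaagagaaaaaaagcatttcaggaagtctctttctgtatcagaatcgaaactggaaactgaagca
Nt5e, promoter, chr9:88327359-88327658, + strand: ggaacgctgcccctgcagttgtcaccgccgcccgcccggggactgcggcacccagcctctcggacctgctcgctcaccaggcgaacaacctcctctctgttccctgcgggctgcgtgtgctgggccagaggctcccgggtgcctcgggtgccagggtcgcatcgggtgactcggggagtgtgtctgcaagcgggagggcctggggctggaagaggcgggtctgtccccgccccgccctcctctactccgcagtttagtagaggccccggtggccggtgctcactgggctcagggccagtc
Gpr83, promoter, chr9:14859960-14860259, + strand: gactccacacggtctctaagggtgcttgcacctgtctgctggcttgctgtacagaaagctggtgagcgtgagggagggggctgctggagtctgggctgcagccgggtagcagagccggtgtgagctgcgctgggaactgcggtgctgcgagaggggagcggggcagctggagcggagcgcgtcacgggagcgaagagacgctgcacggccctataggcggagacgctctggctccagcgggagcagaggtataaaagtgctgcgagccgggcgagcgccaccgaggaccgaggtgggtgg

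Before any treatment, all 4 genes stood highest in the chimera lines. Normalized counts of Cttnbp2 in U were 388 ± 10.4 (SD, n = 2) in LCL, 188 ± 26.6 (n = 2) in CLC, 41.03 ± 3.66 (n = 3) in CTCFL and 30.9 ± 3.13 (n = 2) in CTCF, and no library of one line overlapped those of another. Samd9l stood at 115 ± 8.17 in LCL and 105 ± 19.4 in CLC, which overlapped, and at 13.7 ± 1.85 in CTCFL and 13.5 ± 1.94 in CTCF, which overlapped as well. Gpr83 stood at 83.6 ± 5.88 in CLC, 45.4 ± 10.9 in LCL, 9.22 ± 6.03 in CTCFL and 8.10 ± 2.08 in CTCF, with overlap between the last 2 lines only. The lines were closest for Nt5e, which stood at 54.9 ± 7.15 in CLC, 39.2 ± 11.8 in LCL, 26.0 ± 0.70 in CTCF and 8.64 ± 3.67 in CTCFL, with no overlap between neighbours in this order. In a bulk library, fewer cells that express a gene and less RNA of it per cell cannot be told apart.

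**Figure D1:**
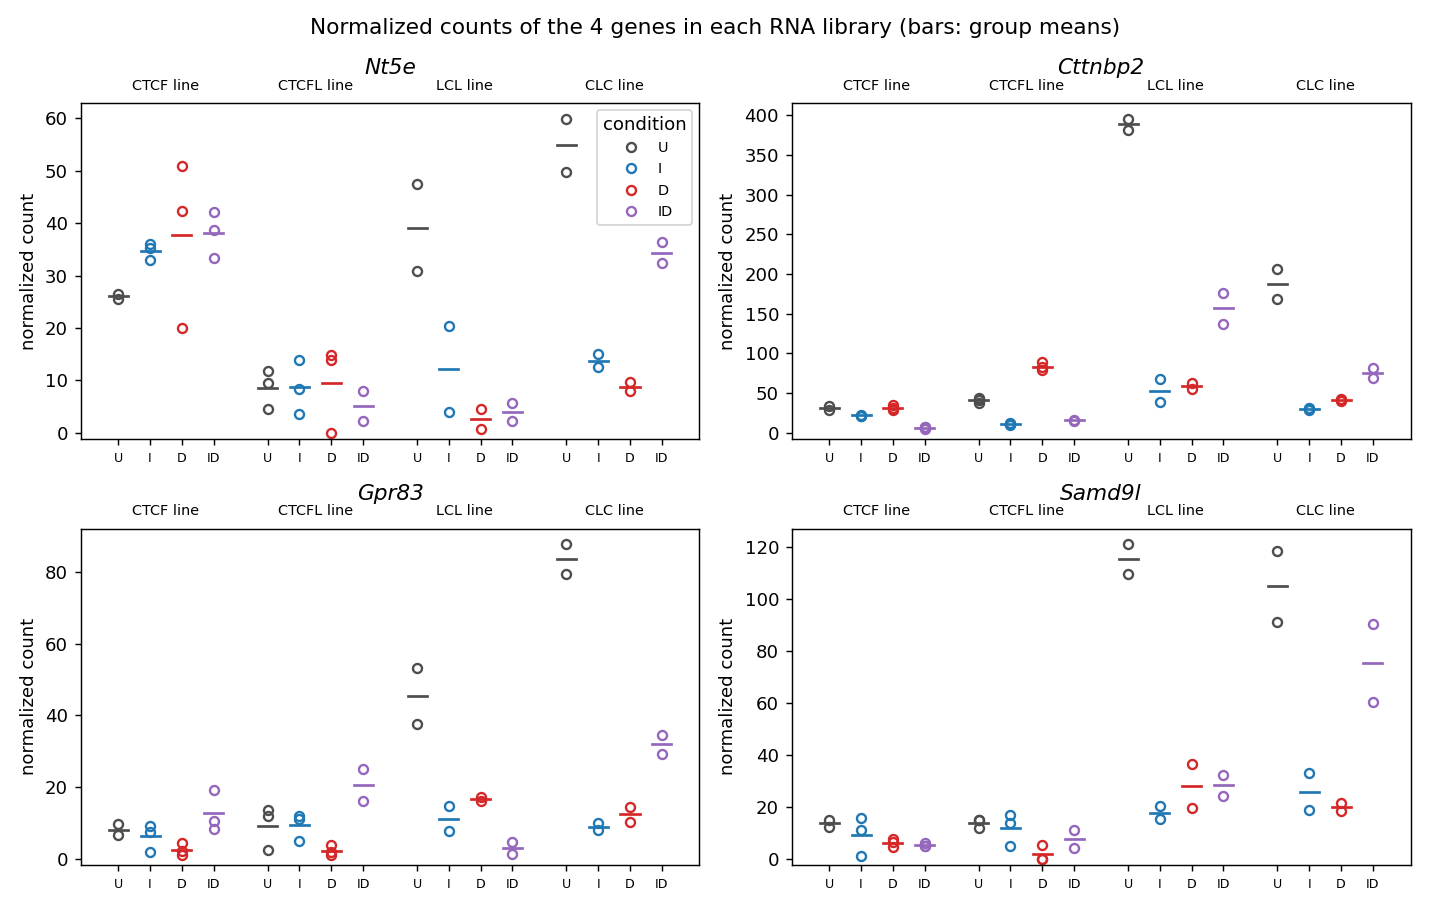
Normalized counts of Nt5e, Cttnbp2, Gpr83 and Samd9l in every library of the 4 lines, with conditions U, I, D and ID on the horizontal axis. Each point is a library and each bar a group mean. In the LCL and CLC lines the U libraries of each gene lie above all I, D and ID libraries, for example at 396 and 381 for Cttnbp2 in U of LCL against 55.2 and 63.1 in D.

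The libraries of the LCL line show how the fall looked gene by gene. Nt5e had normalized counts of 30.8 and 47.5 in U, 20.4 and 4.04 in I, 4.47 and 0.69 in D and 2.35 and 5.65 in ID. Its lowest values are close to nothing, since the D libraries held 6 and 1 reads and the ID libraries 4 each. Cttnbp2 had 396 and 381 in U, 39.02 and 67.1 in I, 55.2 and 63.1 in D and 137 and 177 in ID. U was far above the rest, and ID lay clearly above I and D. Gpr83 had 37.6 and 53.1 in U, 7.57 and 14.6 in I, 17.1 and 15.9 in D and 4.71 and 1.41 in ID, the last from 8 and 1 reads. ID was the lowest condition of Gpr83. Samd9l had 109 and 121 in U, 15.1 and 20.2 in I, 36.5 and 19.4 in D and 32.4 and 24.0 in ID. Its D and ID libraries overlapped.

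In the CLC line the same genes fell into a more regular order. Nt5e had 59.9 and 49.8 in U, 12.5 and 15.1 in I, 9.69 and 7.92 in D (10 reads in each) and 32.4 and 36.5 in ID. Cttnbp2 had 169 and 206 in U, 31.3 and 29.2 in I, 40.7 and 42.7 in D and 69.2 and 81.1 in ID. ID was the second highest condition for both genes, with no overlap with I or D. Gpr83 had 87.8 and 79.5 in U, 9.84 and 7.97 in I, 14.5 and 10.3 in D and 34.6 and 29.2 in ID. Samd9l had 91.2 and 119 in U, 18.8 and 32.8 in I, 18.4 and 21.4 in D and 60.2 and 90.2 in ID. For these genes too, ID lay between U and both single treatments without overlap.

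As group means, the order of the falls differed between the 2 chimera lines. In D of the LCL line, Nt5e was 15.2-fold lower than in U, Cttnbp2 6.57-fold, Samd9l 4.12-fold and Gpr83 2.74-fold. In D of the CLC line, Gpr83 was 6.74-fold lower, Nt5e 6.23-fold, Samd9l 5.27-fold and Cttnbp2 4.50-fold. The groups did not overlap in any of these 8 comparisons. The value of Nt5e in LCL rests on D libraries of 6 reads and 1 read, and its log2 fold change, −3.69, ranged from −4.54 without D replicate 1 to −2.84 without D replicate 2. With a pseudocount of 5 it was −2.56, and Cttnbp2 then had the larger fall on the log2 scale. A gene is called here at an adjusted p under 0.01 in limma with a log2 fold change above 1 in size. By that rule 0.903% of 15274 genes were called lower in D of LCL and 0.248% of 15337 in D of CLC, and since the members were chosen on this contrast nothing is read from how many of them belong to those shares.

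Ranked by log2 fold change of log2(value + 1), Nt5e was the gene with rank 2 among the falls of LCL D at −3.69, between mt-Atp8 at −4.52 and Slc2a4rg-ps at −3.09. Cttnbp2 was at rank 9 with −2.70, beside Ceacam2 at −2.76 and Lefty2, a Nodal inhibitor, at −2.69. Samd9l was at rank 32 with −2.07 between Zan and C230037L18Rik, which stood at −2.07 and −2.02. Gpr83 was only at rank 143 with −1.38, between Foxn4 at −1.39 and Snhg4 at −1.38. In CLC D the ranks were 9 for Gpr83 (−2.67, beside S100a14 at −2.73 and Miat at −2.65) and 18 for Nt5e (−2.51, beside D130058E05Rik at −2.54 and Rnf224 at −2.49). Samd9l at rank 27 (−2.33) stood between Ceacam2 at −2.37 and Cyp2f2 at −2.32, and Cttnbp2 at rank 37 (−2.14) between Fam107a at −2.17 and Gm12655 at −2.10. None of the 4 was thus the gene that fell most in either line, and Gpr83 in LCL was among many genes of like size.

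With IAA alone, which degrades endogenous CTCF, the genes were low in the chimera lines as well. These comparisons use the same U libraries on which the members were chosen, so that a high U value enters both. In I of LCL against U, Cttnbp2 fell by 2.90 on the log2 scale (standard error 0.26, adjusted p = 2.51e-08 in limma) and Samd9l fell by 2.65 (0.41, adjusted p = 2.96e-05). Gpr83, with a log2 fold change of −1.99 (0.66, adjusted p = 0.0208), and Nt5e, with −1.92 (0.89, adjusted p = 0.0935), were not called although their libraries did not overlap. That made 2 of 4 members called lower. Of 15274 tested genes, 815 were called lower and 649 higher, 9.58% in either direction. Because of the shared U libraries, nothing is read from this count.

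In I of CLC all 4 members were called lower. Of 15337 tested genes, 935 were called lower and 1027 higher, 12.8% in either direction. The U libraries of CLC also entered the choice of the members, so nothing is read from this count. The log2 fold changes were −3.10 for Gpr83 (adjusted p = 0.000228 in limma), −2.59 for Cttnbp2 (6.15e-05), −2.02 for Samd9l (0.00203) and −1.92 for Nt5e (0.0025). Without either U library of CLC, 2 members were called. The means in I were 9.39-fold below U for Gpr83, 6.20-fold for Cttnbp2, 4.07-fold for Samd9l and 3.98-fold for Nt5e. The corresponding values in LCL were 4.10, 7.32, 6.52 and 3.21.

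**Figure D2:**
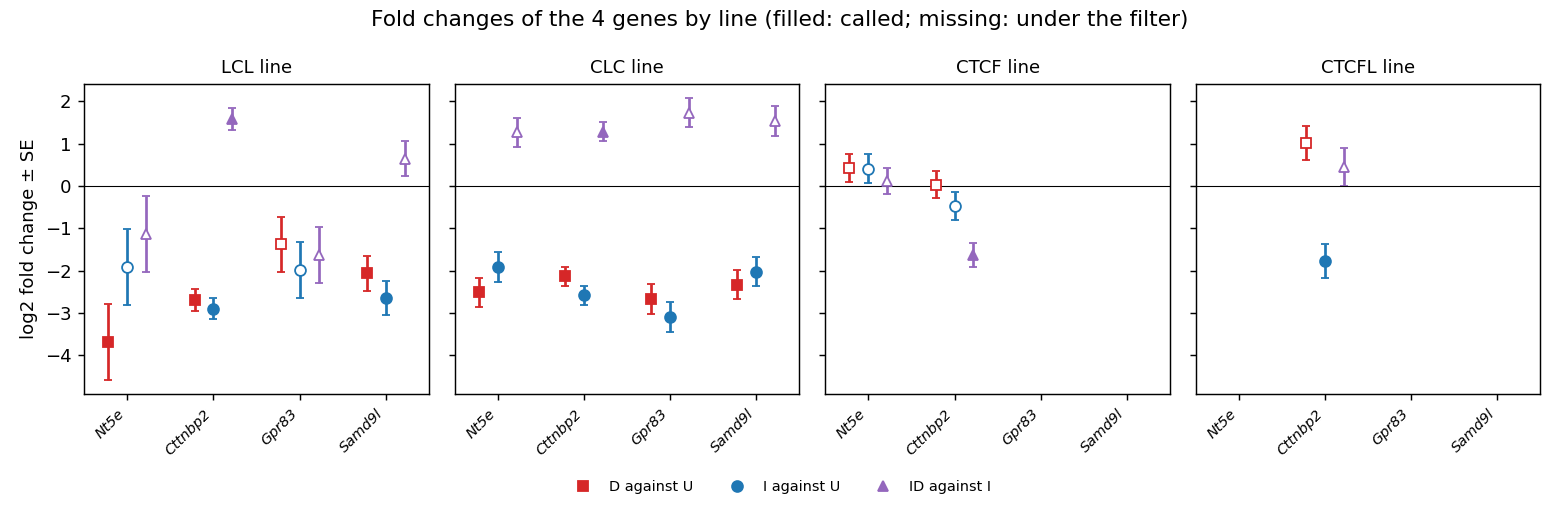
log2 fold changes of the 4 genes in each line for D against U, I against U and ID against I, with bars of 1 standard error from limma on log2(value + 1). Filled points are called and open points are not. D against U in LCL and CLC is the contrast used to choose the genes, so its filled points are no test of them. ID against I is above 0 for all 4 genes in CLC, whereas in LCL Cttnbp2 stands at 1.58 and Gpr83 at −1.64.

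The change from I to ID, in cells whose endogenous CTCF was degraded, differed between the members and between the chimeras. This comparison shares no library with the one used for the choice. In the LCL line Cttnbp2 rose, by 1.58 on the log2 scale (standard error 0.26, adjusted p = 4.51e-05 in limma), a 2.96-fold higher mean. Samd9l had a log2 difference of 0.64 (0.41, adjusted p = 0.210), with no overlap. Gpr83 stood at −1.64 (0.66, adjusted p = 0.0485) with a mean 3.62-fold lower and no overlap, and Nt5e at −1.14 (0.89, adjusted p = 0.317) with overlap. Nt5e passed the minimum mean of 10 in this line through U, where its mean was 39.2 against 12.2 for I, 2.58 for D and 4 for ID, so that its test had few reads to work with. Of the 4 members, 0 were called lower by limma, 0 by edgeR and 0 by DESeq2, with 1 at an unadjusted p under 0.05, where 4.45% of tested genes were called lower, and 1 was called higher, where 4.04% were. With shares of this size a count of 0 among 4 genes is no result about the members.

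In the CLC line all 4 genes had higher means in ID than in I, by 3.58-fold for Gpr83, 2.92-fold for Samd9l, 2.49-fold for Nt5e and 2.48-fold for Cttnbp2, and in none did the groups overlap. Cttnbp2 rose by 1.28 (0.22, adjusted p = 0.00752 in limma). The others missed the threshold, Gpr83 at 1.73 (0.35, adjusted p = 0.0134), Samd9l at 1.53 (0.35, 0.0209) and Nt5e at 1.26 (0.35, 0.0395). Thus 1 of 4 was called higher by limma, 1 by edgeR and 3 by DESeq2, where 1.15% of tested genes were called higher. None was called lower, with 0 by limma at an unadjusted p under 0.05, 0 by edgeR and 0 by DESeq2, where 0.795% were. The single call rested on the libraries, since it was lost without ID replicate 1, without ID replicate 2 and without I replicate 2.

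Summed counts of marker genes of other cell states moved with some of these changes. The summed normalized counts of 8 primed epiblast markers (Fgf5, Otx2, Lef1, Cdh2 and others) were 4123 to 4394 in U of LCL, 2493 to 2509 in I, 3431 to 3553 in D and 1996 to 2329 in ID. In CLC they were 4637 to 4745 in U, 2469 to 2653 in I, 3214 to 3315 in D and 3411 to 3455 in ID. These sums were thus lower in I and D than in U in both lines. In CLC they were higher in ID than in I, as the 4 genes were. None of the 7 tested markers was called in D of either line. Their median log2 fold changes there were −0.29 in LCL and −0.59 in CLC. In LCL the sums of 10 primitive endoderm markers (Gata4, Gata6, Sox17 and others) were 11182 to 12521 in U, 5465 to 5499 in I and 10105 to 10668 in D. In CLC they were 8199 to 8240, 3632 to 4254 and 8374 to 8473, and in D did not lie below U. Sums follow the most abundant genes, and the median log2 fold changes of the tested markers did not fall with them. Those medians were 0.09 in LCL and 0.56 in CLC for I against U, and 0.42 and 0.11 for D. The sums of 9 trophoblast markers were higher in I, D and ID than in U. In LCL they were 2539 to 2738 in U, 3908 to 4129 in I, 3101 to 3228 in D and 6570 to 6592 in ID. In CLC they were 2687 to 2718, 4432 to 4444, 2857 to 2963 and 4137 to 4404. The 15 naive pluripotency genes summed to 309263 to 310984 in U of CLC, 227331 to 235824 in I, 293356 to 299290 in D and 268977 to 278426 in ID, and to 263502 to 269997, 231960 to 241972, 296988 to 299647 and 245052 to 251565 in LCL. None of the primed epiblast, primitive endoderm or naive markers was at 0 throughout U or D of these lines, and the part of such states in the values of the 4 genes was not tested.

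Adding IAA to doxycycline moved the genes of the CLC line as well. ID means of CLC were 3.91-fold above D for Nt5e, 3.78-fold for Samd9l, 2.57-fold for Gpr83 and 1.80-fold for Cttnbp2, without overlap. In the LCL line Cttnbp2 was 2.65-fold higher in ID than in D and Gpr83 was 5.41-fold lower, both without overlap, while Nt5e and Samd9l overlapped.

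The CTCF and CTCFL lines show the same genes when a full-length transgene was induced, in other clones with other untreated levels. In D of the CTCF line, Cttnbp2 had 34.7, 31.9 and 28.2 against 28.7 and 33.1 in U, and Nt5e had 20, 50.99 and 42.4 against 25.5 and 26.5. Both overlapped, with log2 differences of 0.03 (adjusted p = 0.960 in limma) and 0.42 (0.410). Gpr83 and Samd9l were under the minimum mean of 10 in that line and were not tested. Gpr83 stood at 1.05, 2.12 and 4.34 in D against 9.57 and 6.63 in U, and Samd9l at 7.37, 6.37 and 4.34 against 14.9 and 12.1, so that D was lower without overlap for both at a level of few reads.

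In D of the CTCFL line, Cttnbp2 had 88.8, 79.2 and 82.4 against 44.4, 41.5 and 37.2 in U, higher without overlap but with a log2 difference of 1.01 (0.40, adjusted p = 0.0544 in limma). Samd9l had 0, 5.32 and 0 against 14.8, 14.8 and 11.6, also without overlap and in the opposite direction. Gpr83, at 0.99, 1.77 and 3.75 against 13.5, 11.9 and 2.32, and Nt5e, at 13.8, 14.8 and 0 against 9.43, 11.9 and 4.64, overlapped. D replicate 3 of CTCFL was the library with the fewest reads. Of the members tested, 0 of 2 were called lower in D of CTCF and 0 of 1 in D of CTCFL, with 0 and 0 in that direction at an unadjusted p under 0.05 and none by edgeR or DESeq2. In all genes 0.239% and 2.14% were called lower.

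Cttnbp2 was the member that the tests could follow in all 4 lines. In I against U it fell in CTCFL, by 1.77 (0.40, adjusted p = 0.0012 in limma), and stood at −0.47 (adjusted p = 0.256) in CTCF, where 9.58% and 10.9% of tested genes were called in either direction. In the CTCF line 0 of 2 tested members were called in I, with 0 at an unadjusted p under 0.05 and 0 by edgeR and by DESeq2. In ID against I of the CTCF line Cttnbp2 had 4.82, 7.04 and 7.57 against 21.3, 22.7 and 21.8, and fell by 1.64 (0.29, adjusted p = 0.000575). Those ID libraries held 4, 6 and 5 reads of it. In the CTCFL line it had 15.3 and 16.1 in ID against 10.3, 12.97 and 10.9 in I, a log2 difference of 0.44 (0.45, adjusted p = 0.473). That was 1 of 2 tested members called lower in CTCF, where 3.30% of all genes were, and 0 of 1 in CTCFL (0 at an unadjusted p under 0.05, 0 by edgeR, 0 by DESeq2), where 3.89% were. Gpr83 in CTCFL, not tested, stood at 25.1 and 16.1 in ID against 11.2, 4.99 and 11.8 in I, higher without overlap.

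The difference between lines was tested directly as the change from I to ID in a chimera line minus that in another line. For Cttnbp2 it was 3.22 against CTCF in LCL (standard error 0.36, adjusted p = 2.13e-08 in limma) and 2.92 in CLC (0.36, adjusted p = 1.26e-07), so that the gene rose with each chimera relative to its fall with CTCF. Against CTCFL the differences of Cttnbp2 were 1.15 (adjusted p = 0.0163) in LCL and 0.84 (0.0753) in CLC. Of all genes, 5.55% were called higher in LCL than in CTCF and 6.66% in CLC than in CTCF. For Gpr83 the LCL change was 2.67 lower than in CTCF on this scale (−2.67, adjusted p = 0.0192) and −2.75 against CTCFL (0.0201). No member was called lower in LCL or CLC than in CTCF or CTCFL, by limma, edgeR or DESeq2, where 4.94% and 5.83% of genes were for LCL and 4.24% and 6.06% for CLC. Gpr83 was the 1 member with an unadjusted p under 0.05 in that direction for LCL, in both comparisons, and there was none for CLC.

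A direct comparison of the 2 chimeras was added after the values were seen. The I to ID change of Gpr83 was lower in LCL than in CLC, with a difference of −3.37 (0.97, adjusted p = 0.00893 in limma), where 4.07% of genes were called lower. For Nt5e the difference was −2.40 (adjusted p = 0.139). The call of Gpr83 was lost when any 1 of LCL ID replicate 2, the I libraries of either line or the ID libraries of CLC was left out.

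The chimeras were then located around the genes. A FLAG site of LCL lay within 50 kb of the gene start of 2 members in D and 3 in ID, where 86.2% and 89.5% of 15420 tested genes with a position had one. CLC had such a site at none of the 4 members in D or in ID, where 44.4% and 74.6% of genes had one. Within 3 kb of any annotated start, LCL had a site at none of the members in D and at Nt5e and Gpr83 in ID, against 40.3% and 51.8% of genes, and CLC at none in either condition, against 9.74% and 27.1%. The number of sites in both replicates, 27597 for LCL in D and 34715 in ID but 7608 and 17892 for CLC, moves with these shares. With 4 genes these counts are given as a description, and nothing is read from them about the falls.

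**Figure D3:**
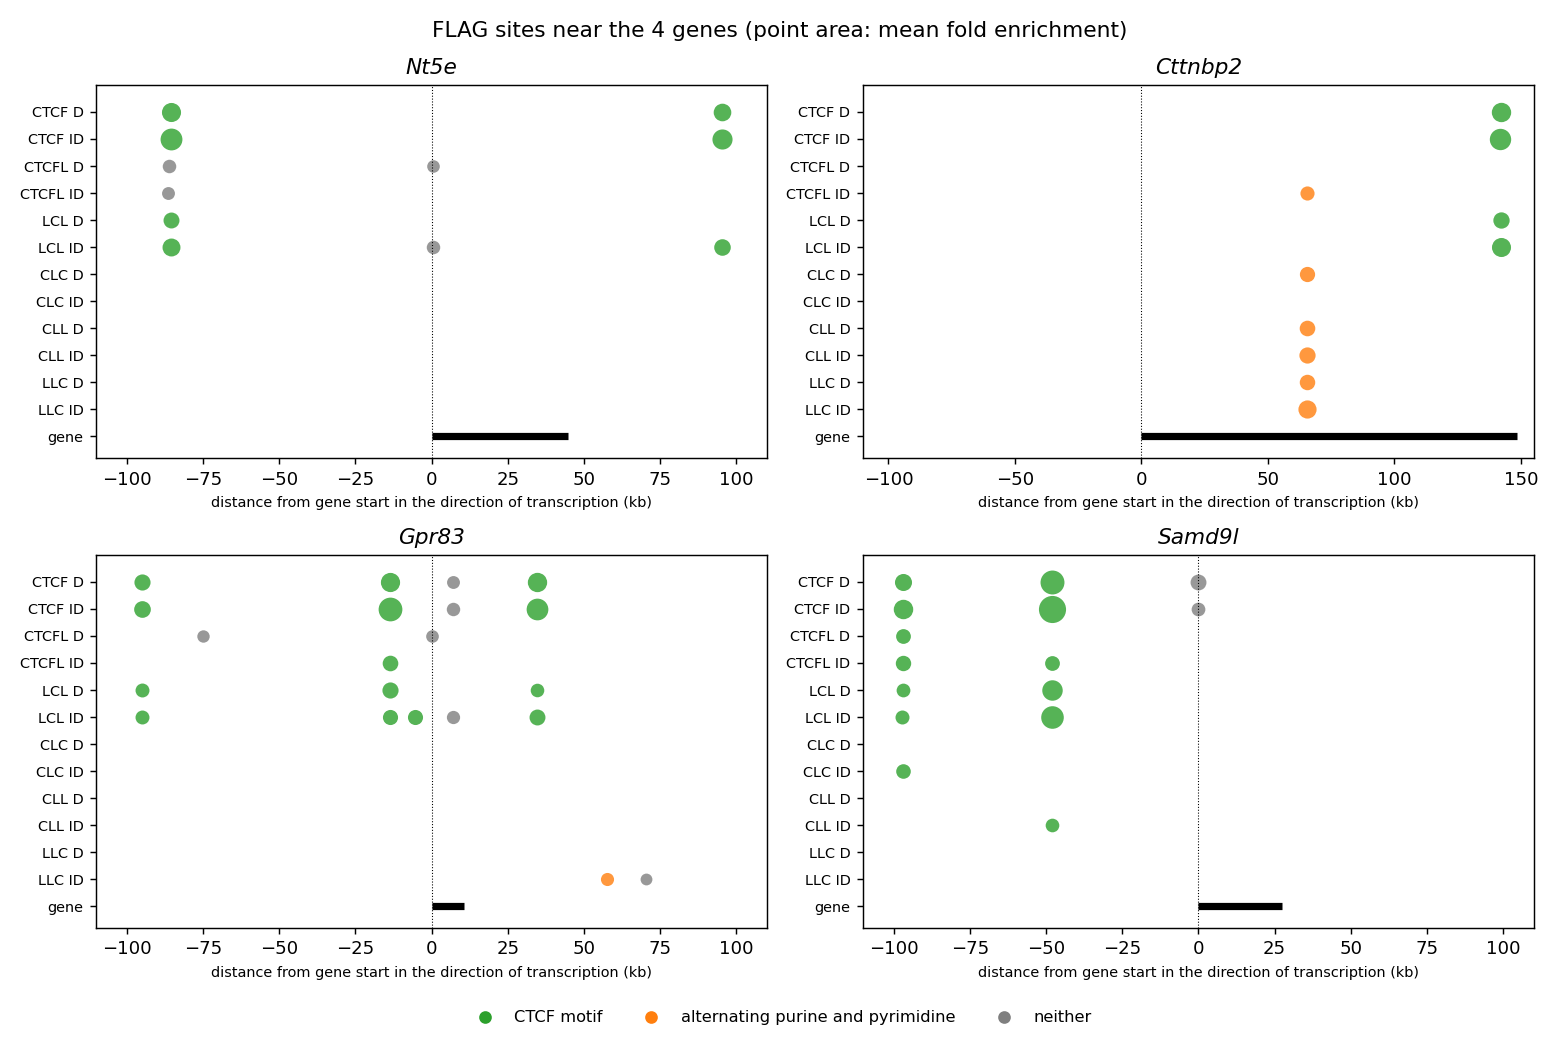
FLAG sites reported here for the 6 transgenic proteins in D and ID cells around the 4 gene starts, by distance from the start in kb along the direction of transcription. Each point is a site with a peak in both replicates, its area gives the mean fold enrichment, and its colour marks a CTCF motif (green), alternating sequence (orange) or neither (grey) around the summit. LCL shares most of its sites near Samd9l, Gpr83 and Nt5e with CTCF, and CLC in D has a site 65.4 kb into Cttnbp2.

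Samd9l had the strongest FLAG sites, at the motif 48.0 kb upstream that is printed above. Fold enrichment over local background there was 17.2 and 12.1 for CTCF in D and 18.0 and 19.6 in ID. LCL reached 10.3 and 11.1 in D and 12.5 and 13.6 in ID, so that the replicates of LCL in D lay below those of CTCF. CTCFL (7.25 and 3.92) and CLL (3.94 and 5.58) had a site there in ID only, and CLC in neither condition. CTCF alone also had a site at the Samd9l start itself, 4.77 and 8.16 in D and 5.85 and 3.80 in ID. LCL had peaks there in replicate 1 of ID only (3.00 and 4.51), which makes no site. The CTCF peaks cover the promoter match capitalized above. The 121 bases around the highest summit, 3399842 in D replicate 2, held no match. Those around the summits of D replicate 1 (3399597) and ID replicate 2 (3399580) held that promoter match. At the motif site 97.0 kb upstream CLC was listed in ID (4.98 and 5.92) and in replicate 2 alone of D (3.35).

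RAD21, a subunit of the cohesin ring, was listed at the same place 48.0 kb upstream of Samd9l in both D replicates of each line. Its fold enrichment was 10.3 and 9.76 in LCL and 7.95 and 8.26 in CLC, and 9.42 and 7.81 in CTCF and 10.8 and 5.39 in CTCFL. In ID it was listed in replicate 1 of LCL (7.73), CTCF (8.62) and CTCFL (9.20) and in neither replicate of CLC. Since the ID replicates 2 held only 168 to 789 peaks each, against 2479 to 8602 in replicates 1, absence from them says little. Samd9l was the only member with RAD21 in both replicates within 50 kb.

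Gpr83 had LCL sites on either side in D. At the motif 13.6 kb upstream printed above, LCL had 6.81 and 6.52 in D and 6.06 and 5.63 in ID, against 11.2 and 7.64 for CTCF in D and 13.1 and 15.8 in ID. CLC had a peak there in replicate 2 of ID alone (4.62), which makes no site. A second motif site 34.6 kb downstream of the start held LCL at 3.55 and 5.85 in D and 6.73 and 6.22 in ID. Sites of LCL 5.5 kb upstream (5.83 and 5.81) and in the intron 6.9 kb into the gene (4.28 and 4.67) were listed in ID only, and the intronic site lies within 3 kb of an internal annotated start. CTCFL was the only protein with a site at the main start of Gpr83, in D (4.15 and 4.06). RAD21 was listed 13.5 kb upstream in replicate 2 of LCL D (3.98) and 13.1 kb upstream in replicate 2 of CLC D (3.84), each in that replicate alone.

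Nt5e had a site of LCL over its first exon in ID and not in D. The fold enrichment of LCL 0.4 kb after the start was 5.01 and 4.27 in ID, and neither D replicate listed a peak there. CTCFL had one at the same place in D (3.64 and 4.49). RAD21 was listed 0.5 kb after the start in replicate 2 of CLC D alone (4.38). Farther out, LCL was bound at the motif 85.5 kb upstream in D (6.19 and 6.79) and in ID (7.87 and 8.58), and 95.4 kb downstream in ID (6.51 and 7.54), both sites that CTCF also held. In the LCL line the ID libraries of Nt5e, at 4 reads each, were no lower than the D libraries, at 6 and 1 reads.

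Cttnbp2 had no LCL site within 100 kb of its start. In its intron 142 kb into the gene, LCL bound the motif printed above at 6.18 and 7.43 in D and at 8.84 and 9.72 in ID, and CTCF bound it at 9.67 and 9.52 in D and at 13.2 and 10.1 in ID. CLC was listed in D in the intron 65.4 kb into the gene, at 6.34 and 5.52, on the alternating sequence. So were CLL in D (5.83 and 6.63) and ID (6.70 and 6.74), LLC in D (6.25 and 5.98) and ID (10.02 and 6.87) and CTCFL in ID (6.04 and 4.17). CLC in ID (replicate 2, 4.73) and CTCFL in D (replicate 1, 4.21) had a peak there in a single replicate. So had LCL (D replicate 2, 5.56) and CTCF (D replicate 1, 3.93, and ID replicate 1, 3.72). CTCFL also had a peak 0.2 kb from the Cttnbp2 start in D replicate 1 alone (5.76). A peak in a single replicate makes no site by the rule used here.

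**Figure D4:**
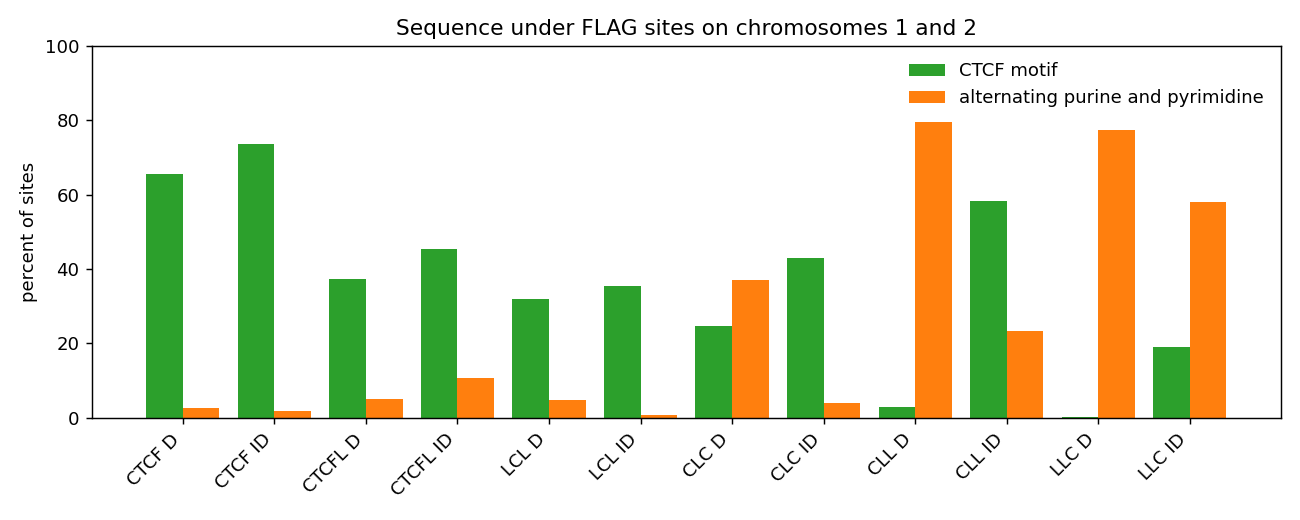
Share of FLAG sites on chromosomes 1 and 2 with a CTCF motif match (green) or with purine and pyrimidine alternating at 80% or more of the steps in 121 bases (orange), by protein and condition. CLC has 37.0% alternating sites in D and 4.09% in ID, while LCL has 4.77% and 0.717%.

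How usual those sequences are was read from all FLAG sites on chromosomes 1 and 2. In D a motif match lay under 31.97% of LCL sites and 24.8% of CLC sites, and in ID under 35.4% and 43.1%, against 65.6% and 73.5% for CTCF in D and ID. The threshold passes 5% of control windows by construction. Alternating sequence as under Cttnbp2 lay under 37.0% of CLC sites in D and 4.09% in ID, and under 4.77% and 0.717% of LCL sites. It lay under 79.7% of CLL and 77.4% of LLC sites in D, and under 0.424% of control windows. The measure of alternation was chosen after the sites near the genes had been seen, and a part of such repeats in the FLAG signal that does not come from binding was not tested.

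Hi-C domain lists, 1 per condition and caller, placed the genes in domains that differed between the callers. By the Crane insulation method Cttnbp2 lay in a domain of 960 kb in D of both LCL and CLC, with the nearer edge 245 kb from the start. In ID the domain measured 1240 kb in CLC and 280 kb in LCL, whose nearer edge lay 34.8 kb from the start. The Samd9l domain reached from the end of the chromosome to an edge 1000 kb or more from the gene in all 4 of these lists, Nt5e lay in a domain with an edge 193 kb away in all but LCL D, where it lay in none, and Gpr83 lay in none. The hicratio lists put Nt5e of LCL D in a domain of 400 kb, Gpr83 in domains of 440 to 480 kb in LCL D, LCL ID and CLC D with an edge 20.2 to 60.2 kb from the start, and Samd9l in domains of 400 to 440 kb with an edge 40.4 to 80.4 kb from the start. They put Cttnbp2 in domains of 1040 kb in LCL D and 1200 kb in CLC D, and of 2680 and 2640 kb in ID. With a single list per condition these differences have no replicate check.

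Calls among neighbouring genes are given as a description. Of all 15274 genes tested in LCL D, 138 were called lower and 153 higher. In CLC D these were 38 and 54 of 15337. With so few neighbours per member, nothing is read from the counts. Within 500 kb, 1 of 7 neighbours of Nt5e was called lower in LCL D (Snhg5, a host gene of small nucleolar RNAs, at −1.63, adjusted p = 1.23e-07 in limma), and it fell in I too, by 1.33. It was not called in CLC D, at −0.30. Of 14 tested neighbours of Gpr83, Vstm5 fell by 1.79 in LCL D (adjusted p = 0.000112) and fell by 1.29 in CLC D (0.00647), and rose by 1.35 in ID against I of CLC (0.00219). Fut4, a fucosyltransferase gene beside Gpr83, rose by 2.16 in LCL D (adjusted p = 0.0057). No tested neighbour of Cttnbp2 or Samd9l was called in D of either line. Vps50 near Samd9l stood at −0.80 in LCL D and −0.71 in CLC D, inside the fold threshold.

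Over the 16 group means of the 4 lines, the members were not alike as a set. As a description across groups that share lines and culture, Gpr83 and Samd9l correlated at 0.76 and Cttnbp2 and Samd9l at 0.64, and the other pairs at 0.06 to 0.36. The gene most like Samd9l among 15765 was Rcn1 (r = 0.96), followed by Nkx1-2 and Lrrn2. For Cttnbp2 it was Pcolce2 (0.92), for Gpr83 Telo2 (0.90) and for Nt5e Ankrd35 (0.86).

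The pathways around the 4 genes were read from lists without the members, chosen with earlier results of these data known. Of all 15274 genes tested in LCL, 138 were called lower and 153 higher in D, and 815 and 649 in I. In CLC these were 38 and 54 of 15337 in D, and 935 and 1027 in I. With lists this short, nothing is read about a pathway from how many genes were called. Of 23 tested genes of extracellular adenosine handling, none was called in D against U of LCL or of CLC, with median log2 fold changes of 0.07 and 0.01 where those of all genes were 0.02 and −0.02. In I of LCL 1 fell and 5 rose, and in I of CLC 3 fell and 3 rose. Adk, the adenosine kinase, fell by 1.69 in LCL and fell by 1.40 in CLC, and Ada, the deaminase, rose by 1.37 in CLC. With the chimera added, Adk rose by 1.53 in LCL ID against I, Ada fell by 1.52 in CLC, and Slc29a3, a nucleoside transporter, rose in both, by 1.02 and 1.10.

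Of 19 tested genes of STRIPAK and cortactin, Strip2 was called higher in D of LCL and none in D of CLC, with list medians of −0.14 and −0.11. Strip2 also rose by 2.40 in I of LCL and fell by 1.35 from I to ID. Around Gpr83, none of 4 tested genes of peptide processing was called in D of either line, with list medians of 0.47 and 0.35. In I, however, Cpe, a carboxypeptidase that trims neuropeptides, had log2 fold changes of −2.26 in LCL and −2.15 in CLC, and of −2.95 and −2.64 in the CTCF and CTCFL lines, all called. Pcsk1n, which codes for proSAAS, fell by 1.95 in LCL and fell by 1.94 in CLC. Pam, which amidates peptides, fell by 2.13 in LCL and stood at −0.57 in CLC.

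Samd9l is an interferon-induced gene, and other genes of that kind were read in the same way. Of 28 tested in LCL, 1 was called lower in D (Ddx58, the RNA sensor RIG-I, at −1.10) and 1 higher (Tap1, a peptide transporter, at 1.22). Of 27 tested in CLC, none was called lower and Tap1 was called higher at 1.97. The list medians were −0.10 and 0.16. In I, when Samd9l was low, Tap1 rose by 1.68 in LCL and by 3.62 in CLC, and Psmb9, a subunit of the immunoproteasome, rose by 1.64 and 1.85, whereas Ddx58 fell by 2.10 in LCL and fell by 2.74 in CLC. From I to ID, Tap1 fell by 1.03 in LCL and fell by 1.97 in CLC.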

How the data were processed

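The signal values of the RNA-seq table were made by the authors, who scaled each library's gene counts by a size factor and deposited them with 2 decimals, after trimming (Trim Galore 0.4.4, per the labels), alignment with STAR to GRCm38/mm10 and handling with SAMtools 1.3. The program that counted reads is not given in the sources used here, and neither is whether strand was used. Whole reads were recovered from 36 of 38 libraries (tolerance 0.1 of a read, values up to 500 reads, 100% whole), and not from replicate 2 of CTCFL I and of CTCFL ID.

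The members and gene lists were chosen with earlier results of these data known. Values were analysed as log2(value + 1), a scale that understates the change of low genes, with limma 3.58.1 in R 4.3.3 with an intensity trend, each line being fitted by itself with its 4 conditions and the genes that had a mean of at least 10 there. Adjusted p-values are Benjamini-Hochberg values over all genes tested. Calls need an adjusted p under 0.01 together with a change of over 1 on the log2 scale. Interactions were fitted over all 4 lines. Named genes beyond the members are neighbours within 500 kb, genes beside each member in rank, the 5 genes with the highest Pearson r over group means, and called genes of the lists. Which of the last are named was chosen after their values were seen.

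The alternatives were another pseudocount, other minimum means, TMM scaling, a block for the replicate number, a fit of the 2 groups alone or of all 4 lines together, leaving out each library, and, with recovered reads, DESeq2 1.42.0 and the quasi-likelihood test of edgeR 4.0.16. The fits were tested on simulated data. No pair of libraries of the same condition was identical, among those with recovered reads. The 2 U libraries of CLC were the closest pair, with a chi-square of 1.36 per degree of freedom, where the next closest pair had 2.94. If they are technical repeats, the spread behind the comparisons of CLC with U is understated, and this was not tested. Same-numbered libraries did not deviate together (r from −0.30 to 0.16), so replicate numbers were not used in the tests reported.

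For ChIP-seq the authors aligned with Bowtie2, kept unique reads, removed duplicates and ran MACS on each replicate with a q threshold of 0.05. Fold enrichment values and −log10 q-values are as the authors deposited them, the control library is not stated, and read depth is unknown. A FLAG site needed an overlap of 1 bp or more between the replicates' peaks, and its distance is that of its middle from the gene start. For the printed sequences the distance is that of the summit. The CTCF matrix was built from 1500 CTCF ID sites on chromosomes 1 and 2, and a match scored above the 95th percentile of 4241 windows lying 3000 bases from sites. Sequences were read from the RefSeq GRCm38 genome and its promoter table, in which all 4 genes were found. A further FLAG site upstream of Samd9l, held by several of the proteins, CLC in D among them, is not reported or plotted here, so that the sites given for that gene are not complete. Python 3.11.15, numpy 2.4.6 and pandas 2.3.3 were used.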

Additional observations from a re-analysis of the deposited data

Results flagged for a closer look

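The change of Cttnbp2 from I to ID differed between lines by a test of the difference itself. It was higher in LCL than in CTCF by 3.22 on the log2 scale and higher in CLC than in CTCF by 2.92, and the CTCF ID libraries behind both values held 4 to 6 reads of the gene. The same test found the change of Gpr83 lower in LCL than in CLC, at −3.37, where the ID libraries of LCL held 8 reads and 1 read. That comparison was added after the values were seen. No group of libraries here has 4 or more members, so single libraries were not screened.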

How the results depend on the processing

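Of 727 values of single members recomputed over 53 alternative settings, 682 were counted as the same, 22 lost a call, 11 gained one, 8 changed sign and 4 moved. The same meant an equal direction and side of the threshold, except for D against U of LCL and CLC. There it meant a move of less than the standard error, and lost calls were not counted. Calls in that contrast did depend on the setting, as for Nt5e in CLC, called in 5 of 12 alternatives. With a minimum mean of 50, the members called in I against U numbered 1 in LCL, 2 in CLC and 0 in CTCFL, those called lower in ID of CTCF 0, and those lower in LCL than in CLC 0, because fewer members were tested. With all 4 lines in 1 fit, 2 were called in I of CLC and 1 (Samd9l) was called lower in D of CTCFL. The cause was not tested. Leaving out 1 library gave 2 to 4 in I of CLC. For the 1 member lower in LCL than in CLC (Gpr83), no filter on low values gave 0, DESeq2 gave 2 and leaving out 1 library gave 0 to 1. For the 1 member higher in ID of CLC, no filter and the 2 groups alone gave 0, DESeq2 gave 3 and leaving out 1 library gave 0 to 1. With the replicate number as a block, both counts were 0, and with crossed numbers (CLC ID and I deviated against each other, r = −0.25) the second was 0. The numbers were shared, but nothing showed that they pair the libraries. A promoter window of 1 kb in place of 3 kb left 1 member with an LCL site, and RAD21 in replicate 2 alone was listed near 3 members against 1 in both replicates. Values that changed sign were all uncalled. Cttnbp2 in D of CTCF ranged from −0.0708 to 0.13 when 1 library was left out, and Cttnbp2 in LCL minus CLC from −0.0798 to 0.69. Nt5e in LCL minus CTCFL was 0.26 with the replicate block and ranged from −1.49 to 0.60 without 1 library. TMM scaling moved the median of all genes by at most 0.052. Depth limits Nt5e and Gpr83, with under 10 reads in several LCL libraries, Cttnbp2 in ID of CTCF and Samd9l in D of CTCFL, and 2 libraries per group limit every test in LCL and CLC.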
